A study of Anguilla japonica with 6 samples.

Results

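The genes zp1, zp2, zp3 and zp4 were followed transcript by transcript in the gonads of farmed Japanese eels (Anguilla japonica) at the silver stage, when the gonads are differentiated but immature, in fish that had received no hormone. Members were all full-length transcripts whose SwissProt protein annotation carried the symbol zp1, zp2, zp3 or zp4, and 367 of the 35011 transcripts did so. There were 3 for zp1, 40 for zp2, 228 for zp3 and 96 for zp4. The groups were ovary (3 females) and testis (3 males), with a library for each fish. Short-read libraries held 15096728 to 18508307 estimated counts in ovaries and 11913969 to 13616804 in testes, counted on full-length transcripts that the authors had assembled from ovary or testis long reads. No label gives the age of the fish.

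Zona pellucida (ZP) proteins are secreted by or delivered to the growing oocyte and polymerise through a shared ZP domain into the filaments of the egg envelope, the coat that surrounds the fish egg and that sperm must pass. In teleosts the zp3 family, also called ZPC, supplies one kind of subunit, and the zp1, zp2 and zp4 families, which include the proteins called ZPB, supply the other. Eel records named eSRS3 and eSRS4, for eel spermatogenesis related substance, are ZP proteins that were named from work on eel testis, so a testis level of these genes is of interest in this species.

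Egg envelope transcripts made up 20.8%, 19.5% and 22.6% of all counts in the ovaries, against 0.115%, 3.37% and 0.846% in the testes. Every ovary stood above every testis, and among the testes replicate 2 stood highest. With 3 libraries in each tissue, the exact two-sided permutation test of this share gave p = 0.1, the smallest p that it can give. In bulk tissue, fewer cells that hold a transcript and less of it in each such cell cannot be told apart, and which testis cells hold these transcripts was not tested.

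In FPKM (fragments scaled to transcript length and library size, a unit that allows genes to be compared per length), zp3 was the most abundant of the genes in ovaries, followed by zp4, zp1 and zp2, and neighbours in this order did not overlap among the libraries. The transcripts of zp3 summed to 74370, 69927 and 94716 FPKM in the ovaries, against 572, 13099 and 4190 FPKM in the testes. For zp4, the other abundant gene, the levels were 51765, 51214 and 43359 FPKM in the ovaries, against 12.1, 8649 and 189 FPKM in the testes. In both genes all ovaries stood above all testes, and testis replicate 2 came closest to the ovaries. Levels of zp1 were 10719, 9546 and 9771 FPKM in the ovaries and 0, 877 and 15.5 FPKM in the testes. Those of zp2 were 5803, 4315 and 5516 FPKM in the ovaries and 1.90, 164 and 13.3 FPKM in the testes. The least abundant pair thus had the same order of testes, replicate 2 above replicate 3 above replicate 1, as the most abundant pair.

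**Figure D1:**
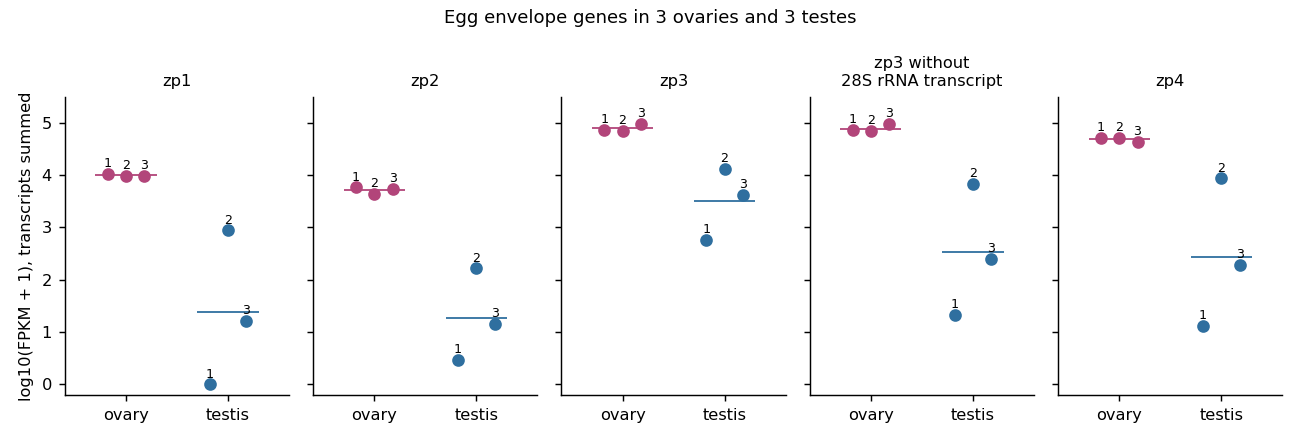
Level of each egg envelope gene on a log10(FPKM + 1) axis, with 1 numbered point per library, ovaries left of testes, and the mean of the log values as a line. All ovaries lie above all testes for each gene. The testes spread widely, from 12.1 to 8649 FPKM for zp4, with replicate 2 always highest.

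Between tissues, zp2 and zp3 were called higher in ovary at an adjusted p under 0.05, and zp1 and zp4 were not. Neither zp1 nor zp4 overlapped between tissues, but how many of all gene units had no overlap is not given here. The log2 fold change, ovary over testis, was 6.79 ± 1.68 for zp2 (SE, n = 3 per tissue, edgeR adjusted p = 0.0154) and 3.73 ± 1.15 for zp3 (edgeR adjusted p = 0.0330). It was 5.30 ± 2.51 for zp1 (edgeR adjusted p = 0.122) and 4.47 ± 1.94 for zp4 (edgeR adjusted p = 0.0969). Of 12194 gene units tested, 21.4% were called higher in ovary and 25.2% higher in testis, so a call by itself did not set these genes apart. Without testis replicate 2, all of zp1, zp2, zp3 and zp4 were called higher in ovary, with log2 fold changes of 10.68, 9.48, 4.96 and 9.02 and edgeR adjusted p values of 0.0290, 0.00973, 0.0349 and 0.0136. The call of zp2 was lost without testis replicate 3 (edgeR adjusted p = 0.0543) and that of zp3 without testis replicate 3 or any 1 ovary (edgeR adjusted p = 0.0729 to 0.118). Without testis replicate 2, 17.2% of units were called higher in ovary and 19% higher in testis.

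The zp3 values of the testes came mostly from 1 transcript. Ovary-built transcript 38484 of zp3, 2230 bases long, had the protein hit zona pellucida sperm-binding protein 3-like of Atlantic salmon (Salmo salar), while its nucleotide hit was the 28S ribosomal RNA gene of the American eel (Anguilla rostrata). It carried 62179, 23866 and 28701 counts in the ovaries, against 14841, 166873 and 92462 counts in the testes. Unlike zp3 as a whole, it overlapped between tissues. Its log2 fold change was -1.46 (edgeR adjusted p = 0.411). It made up 3.22%, 1.53% and 1.09% of zp3 counts in the ovaries, against 96.9%, 56.3% and 95.5% in the testes. Of all egg envelope counts in the testes it held 94.8%, 37.1% and 91.7%.

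Its counts were set beside those of the 7 testis-built transcripts with a 28S ribosomal RNA nucleotide hit and no zp symbol, of which number 26192 (1205 bases) had the most counts. For every 100 counts of transcript 26192, transcript 38484 had 20.9, 17.6 and 160 counts in the ovaries, against 44.6, 44.0 and 43.5 in the testes. For every 100 counts of the next most abundant, number 22143 (1629 bases), it had 20.9, 17.5 and 187 in the ovaries, against 38.5, 56.2 and 55.2 in the testes. For number 26356 (1156 bases), far lower in counts, these values were 679, 609 and 4240 in the ovaries, against 655, 1690 and 1080 in the testes, and the other transcripts had at most 1136 counts in any library. The ratio thus varied with the transcript it was taken to, and ovary replicate 3 stood apart from the other ovaries for each of the 3. The other transcripts with the same salmon protein hit, numbers 44683 and 47603, summed to 23622, 16235 and 21466 counts in the ovaries, against 4, 1358 and 36.8 in the testes, an ovary-high pattern like that of the other members. Whether the short reads on transcript 38484 came from ribosomal RNA was not tested.

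**Figure D2:**
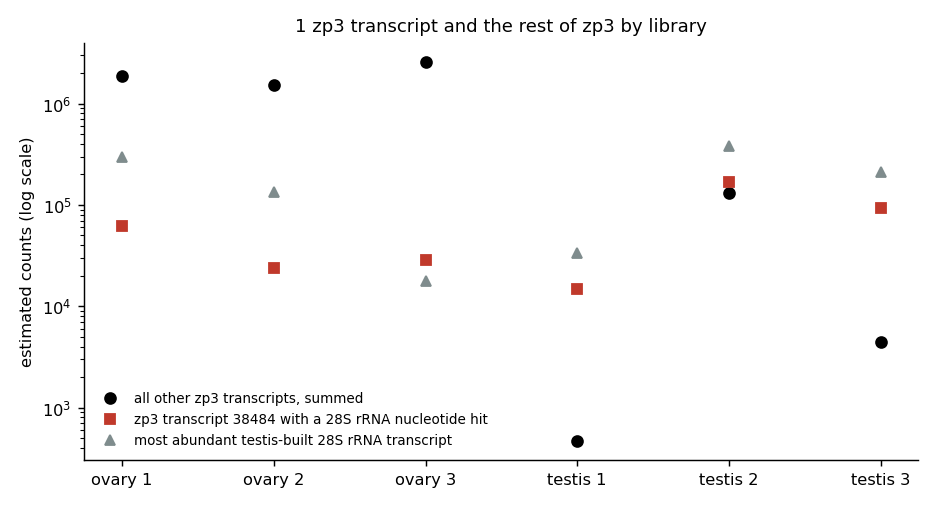
Estimated counts per library on a log axis, ovaries left of testes, for zp3 transcript 38484 (squares), all other zp3 transcripts summed (circles) and testis-built 28S ribosomal RNA transcript 26192 (triangles). In testes 1 and 3 the circles lie far below the squares, while in the ovaries they lie far above them.

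Leaving out transcript 38484, a choice made after seeing the data, lowered zp3 in the testes to 20.4, 6777 and 253 FPKM, against 72550, 69130 and 93923 FPKM in the ovaries. All egg envelope transcripts then held 20.4%, 19.3% and 22.4% of the counts in the ovaries and 0.00602%, 2.12% and 0.0699% in the testes. The log2 fold change of zp3 without it was 5.33 ± 1.96 (SE, n = 3 per tissue), larger than with it but not called (edgeR adjusted p = 0.0596). When testis replicate 2 was left out as well, it was 9.45 and called (edgeR adjusted p = 0.0139). Adjusted p for zp1, zp2 and zp4 moved little, to 0.122, 0.0155 and 0.0981 in edgeR.

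The makeup of the testis counts also changed with this transcript. With it, zp3 made up 53.8%, 53.0% and 62.7% of egg envelope counts in the ovaries and 97.8%, 66% and 96.1% in the testes. Without it, zp3 made up 53.0%, 52.6% and 62.5% in the ovaries and 57.2%, 45.9% and 52.9% in the testes, and these overlapped. Without it zp3 stayed above zp4 in testes 1 and 3 and was just below it in testis 2. The share of zp4 without it was 33.2%, 34.9% and 26.1% in the ovaries and 37.4%, 46.5% and 39.1% in the testes, with no overlap (exact permutation p = 0.1, adjusted over the 4 genes 0.2). With it, zp4 held 32.6%, 34.6% and 25.9% in the ovaries and 1.96%, 29.2% and 3.23% in the testes (exact permutation p = 0.2), so that the side on which zp4 was higher changed with 1 transcript. The share of zp1 was also higher in ovaries either way, at 7.88%, 7.46% and 6.43% against 0%, 6.14% and 3.10% in testes without transcript 38484 (exact permutation p = 0.1).

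By nucleotide hit, the members fell on 8 eel records of egg envelope sequences, of which 1, European eel ZPB, was shared by zp1 and zp4, and each other belonged to a single symbol. The eSRS3 record took 14 zp4 transcripts. For zp3 the records were eZPCa with 61 transcripts, eZPCd with 59, eZPCc with 26, eSRS4 with 10, eZPCe with 8 and European eel (Anguilla anguilla) ZPC with 3. European eel ZPB took 2 of the 3 zp1 transcripts and 4 zp4 transcripts. No nucleotide hit was listed for 137 transcripts, a hit to another fish or gene was listed for 42, 31 of them of zp2, and the 28S transcript stood alone.

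By mean FPKM the most abundant record in ovaries was eSRS3, at 43304, 44880 and 38187 FPKM, against 5.57, 8521 and 141 FPKM in the testes. Next came eZPCa, which was above eSRS3 in ovary replicate 3, at 30683, 28816 and 45803 FPKM in the ovaries and 1.29, 893 and 84.7 FPKM in the testes. The eSRS4 record had 15553, 18270 and 10841 FPKM in the ovaries and 0.14, 2136 and 36.3 FPKM in the testes. All ovaries exceeded all testes for these records, and the testis order was again replicate 2, then 3, then 1. The eZPCe record had 11174, 9227 and 10640 FPKM in the ovaries and 0.05, 1933 and 22.7 FPKM in the testes. European eel ZPB had 10927, 9808 and 9966 FPKM in the ovaries and 0.27, 884 and 18.3 FPKM in the testes. The eZPCd and eZPCc records were lower, at a mean of 2682 ± 289 and 2181 ± 494 FPKM in ovaries, against 31.9 ± 51.7 and 149 ± 252 FPKM in testes (SD, n = 3 per tissue).

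Of these records, eZPCa alone was called higher in ovary, where 21.4% of units were, with a log2 fold change of 7.15 ± 2.13 (SE, edgeR adjusted p = 0.0300), when the records were fitted in place of the symbols among 12203 units, a grouping chosen after seeing the data. The eZPCd record gave 6.68 ± 2.33 (edgeR adjusted p = 0.0504) and European eel ZPB 5.31 ± 2.25 (edgeR adjusted p = 0.0902). For eSRS3 it was 4.19 ± 2.14 (edgeR adjusted p = 0.146) and for eSRS4 4.56 ± 2.38 (edgeR adjusted p = 0.153). Differences between the records in this change were not tested. The call of eZPCa was lost without testis replicate 3 or any 1 ovary (edgeR adjusted p = 0.0601 to 0.0964). Without testis replicate 2, where 17.2% of gene units were called higher in ovary when fitted by symbol, each of the 8 egg envelope records was called, with eSRS3 at 9.51 (edgeR adjusted p = 0.0181) and eSRS4 at 9.95 (edgeR adjusted p = 0.0294).

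**Figure D3:**
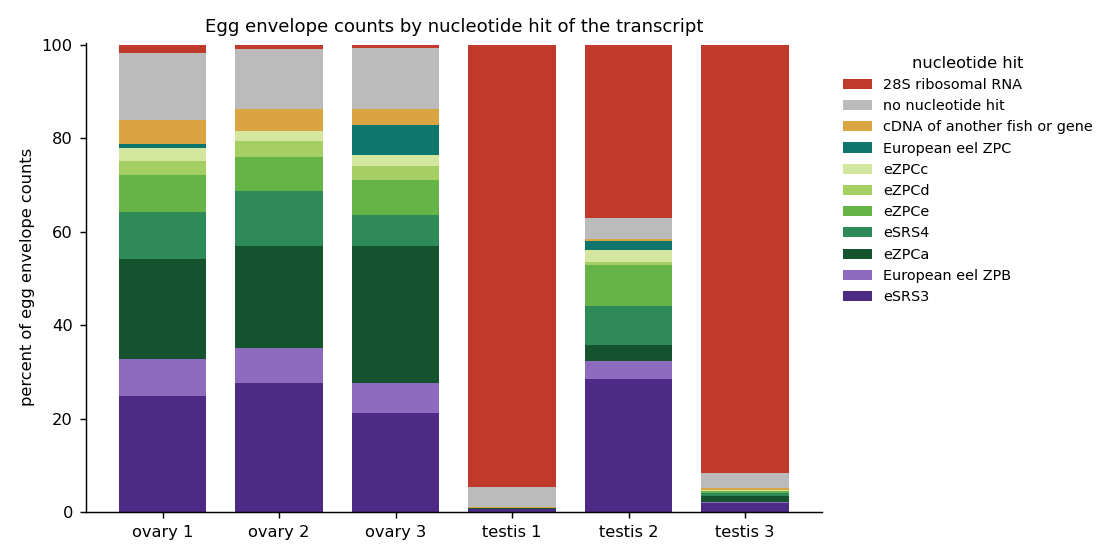
Share of egg envelope counts by nucleotide hit in each library, in percent, ovaries left of testes. The ovaries have a similar makeup, led by eSRS3 (24.9%, 27.6% and 21.2%) and eZPCa (21.4%, 21.7% and 29.3%), while the 28S ribosomal RNA transcript fills 94.8%, 37.1% and 91.7% of the testis bars.

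The European eel ZPC record behaved unlike the others across the ovaries. Its 3 transcripts had 1451, 139 and 11074 FPKM in the ovaries, against 0, 460 and 1.64 FPKM in the testes, so that ovary replicate 2 fell below testis replicate 2. One of them, ovary-built zp3 transcript 48325 (1625 bases), had the most full-length long reads of any member, 1508, going by the read number in its identifier. Its short-read counts were 34084, 2698 and 100672 in the ovaries and 0, 802 and 16.8 in the testes. The protein hit of this transcript was eSRS4 of the Japanese eel. Whether reads of like transcripts were split between this record and the eSRS4 record was not tested.

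Ovaries differed more in the levels of single transcripts than in the gene sums. The coefficient of variation (CV, SD over mean) over the ovaries of the summed CPM (counts per total count of the library, scaled to a common total) was 6.39% for zp1, 10.5% for zp2, 17.0% for zp3 and 8.17% for zp4, against a median of 23.0% over other genes with a symbol. For single transcripts the median CV was 33.1% for zp1, 112% for zp2, 131% for zp3 and 95.4% for zp4, against 67.5% for transcripts of other genes. The gene sums were thus steadier than the median gene, and the transcripts of zp2, zp3 and zp4 less steady than the median transcript. The other genes were not matched to the zp genes in level or in number of transcripts, and the part of either in these CVs was not tested.

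In zp2, ovary-built transcript 16760 (3165 bases) made up 0.0315%, 43.7% and 0.00979% of the counts of the gene in the ovaries, a range of 3160-fold in counts. Transcript 25154 (2770 bases) followed it, with 0.00719%, 24.0% and 0.0245%. Transcript 21899 (2888 bases) was the reverse, with 19.9%, 0.0122% and 12.7%. Ovary replicate 2 thus drew most of its zp2 counts from other transcripts than replicates 1 and 3. These 3 transcripts fell in the same class of nucleotide hit, that of another fish or gene, which is not a single record. Transcript 47768 (1766 bases, no nucleotide hit) was present in each ovary, at 25.2%, 5.79% and 17.5%, and transcript 49660 (1633 bases) held 5.13%, 0.143% and 16.2%. Both had a zona pellucida sperm-binding protein 1-like protein hit, while that of transcript 21899 was 2-like. Different protein records were hit within a symbol, 9 in zp2, 26 in zp3 and 19 in zp4. Whether the shares within a symbol span more than 1 gene was not tested.

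In zp3, eSRS4 transcripts traded places. Transcript 49966 (1574 bases) had 14997, 6972 and 27.5 FPKM in the ovaries, against 0, 1741 and 14.6 FPKM in the testes. Transcript 51849 (1429 bases) had 9.10, 9467 and 42.9 FPKM in the ovaries, against 0, 180 and 15.4 FPKM in the testes. Transcript 46976 (1672 bases) had 449, 1087 and 10640 FPKM in the ovaries, against 0, 167 and 4.09 FPKM in the testes. Each ovary was led by a different one of them, at 17.8%, 10.8% and 10.5% of its zp3 counts, although the eSRS4 record as a whole stayed within 10841 to 18270 FPKM. The eZPCa transcript 21490 (1649 bases), built from testis reads, was steadier, at 10341, 7033 and 3072 FPKM in the ovaries, against 0, 206 and 11.8 FPKM in the testes.

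In zp4 the same was seen among eSRS3 transcripts. Transcript 51473 (1457 bases) had 17719, 4454 and 1036 FPKM in the ovaries, against 1.49, 300 and 12.9 FPKM in the testes. Transcript 24156 (1397 bases), built from testis reads, had 3532, 12260 and 951 FPKM in the ovaries, against 0, 944 and 14.7 FPKM in the testes. Transcript 49119 (1678 bases) had 5336, 1068 and 8062 FPKM in the ovaries, against 1.79, 1075 and 10.9 FPKM in the testes. They led ovary replicates 1, 2 and 3 in that order, with 31.5%, 20.9% and 19.3% of zp4 counts. Transcript 49448 (1646 bases), which ranked first in mean share over the 6 libraries, held 6.65%, 18.8% and 8.11% in the ovaries and 1.47%, 24.7% and 9.32% in the testes. In the ovaries only zp1 was carried by 1 transcript, number 47628 (1761 bases, European eel ZPB), with 97.4%, 98.8% and 98.0% of zp1 counts in the ovaries and 93.8% and 72.8% in testes 2 and 3, while zp1 was listed at 0 in testis 1.

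**Figure D4:**
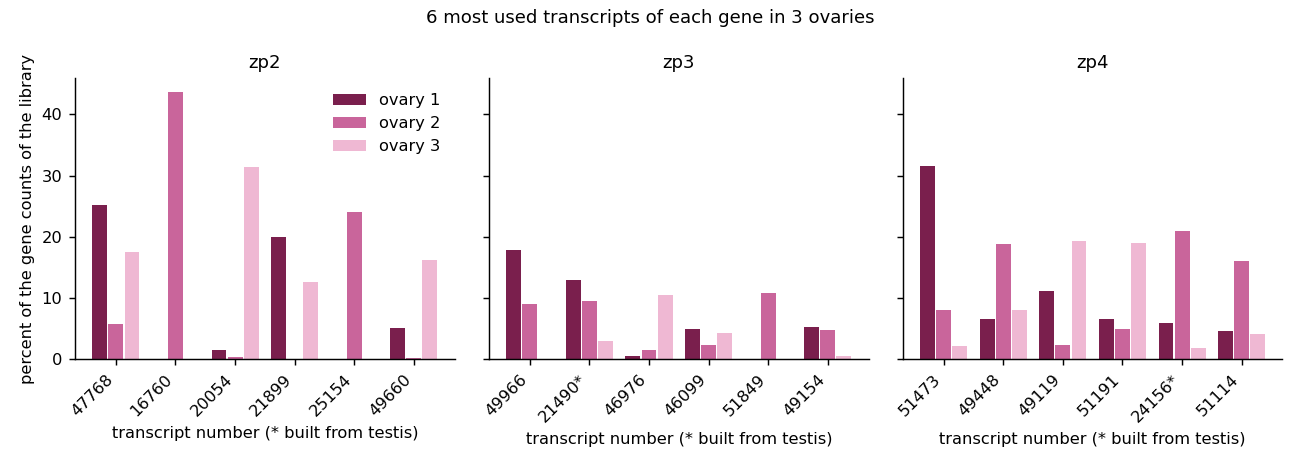
Share of the counts of zp2, zp3 and zp4 held by the 6 transcripts with the highest mean share in the ovaries, as 1 bar per ovary, in percent. The tallest bar belongs to a different transcript in each ovary, such as 47768, 16760 and 20054 for zp2 at 25.2%, 43.7% and 31.4%.

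The overlap of transcript use between 2 libraries, the summed smaller share over the transcripts of a gene, had a median between ovaries of 99.2% for zp1, 13.1% for zp2, 29.6% for zp3 and 42.9% for zp4. Across 372 other genes with 10 or more transcripts and 100 or more counts in each library, the median was 40.0%. By this measure zp4 was near other genes of many transcripts, while zp2 and zp3 lay below that median. No label or file header says how the authors divided reads among near-identical transcripts, and whether that division or differences between fish set these shares was not tested.

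The effective number of transcripts, the inverse of the summed squared shares, was 14.6, 22.1 and 22.5 for zp3 in the ovaries and 1.06, 2.98 and 1.10 in the testes (exact permutation p = 0.1, adjusted over the genes 0.4). Without transcript 38484 it was 13.9, 21.5 and 22.1 in the ovaries and 9.43, 10.2 and 26.3 in the testes, which overlapped (exact permutation p = 0.7). For zp4 it was 7.21, 8.08 and 8.93 in the ovaries and 9.71, 5.81 and 15.8 in the testes (exact permutation p = 0.6). That of zp2 was 6.08, 3.54 and 5.53 in the ovaries and 2.41, 6.31 and 4.07 in the testes (exact permutation p = 0.7). That of zp1 was 1.05, 1.02 and 1.04 in the ovaries and 1.13 and 1.66 in testes 2 and 3, with no overlap (exact permutation p = 0.2). With no value in testis 1, this is the smallest p that the test can give.

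Whether tissues differed in the mix of transcripts, apart from the level of the gene, was tested with diffSpliceDGE of edgeR, which called 8.78% of 6252 genes. By its gene F test, the mix of zp4 was called (adjusted p = 2.25e-05, 71 transcripts tested), as was that of zp3 (adjusted p = 1.56e-05, 184 transcripts). Those of zp2 (adjusted p = 0.143) and zp1 (adjusted p = 0.784) were not. By the Simes test of the same fit, which called 2.26% of genes, neither zp4 (adjusted p = 0.274) nor zp3 (adjusted p = 0.902) was called. On simulated data the F test made false calls above its nominal rate. Without transcript 38484 the mix of zp3 was no longer called (adjusted p = 0.383, 8.77% of genes called). Nor was it without testis replicate 3 (adjusted p = 0.0647, 3.79% of genes called). That of zp2 was called without testis replicate 1 (adjusted p = 0.0473), where 12.2% of genes were called. Without testis replicate 2 that of zp4 was not called (adjusted p = 0.131, 4.66% of genes called).

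Testis-built transcripts numbered 8 of the 367 members, 1 of zp2, 4 of zp3 and 3 of zp4. Going by the read numbers in the identifiers, 2.93% of the full-length reads behind ovary-built transcripts (3657 of 124962, 95% Wilson interval 2.83% to 3.02%) and 0.101% of those behind testis-built ones (64 of 63501, 0.0789% to 0.129%) belonged to egg envelope transcripts. The testis long reads thus held a small share of these transcripts too, with zp4 ahead at 38 reads, then zp3 at 24 and zp2 at 2. These intervals cover counting error only, and the long reads had no replicates.

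Some testis-built transcripts were used in ovaries, and others almost only in testis replicate 2. The shortest member, testis-built zp4 transcript 28098 (712 bases, eSRS3), had 4058, 4005 and 4000 FPKM in the ovaries, against 0, 1496 and 29.2 FPKM in the testes, and so was near equal among the ovaries. By contrast, testis-built zp4 transcript 23966 (1366 bases, with eSRS3 as nucleotide hit and European eel ZPB as protein hit) had 0, 202 and 15.5 counts in the ovaries, against 0, 33207 and 0 counts in the testes. It supplied 25.3% of the zp4 counts of testis replicate 2 and came from 33 full-length reads. Testis-built zp2 transcript 15462 (2176 bases) had 0, 6.61 and 0 counts in the ovaries and 0, 1207 and 9.69 in the testes, 29.0% of the zp2 counts of testis replicate 2. Testis-built zp3 transcript 16871 (2056 bases, eZPCc) had 774, 864 and 4214 counts in the ovaries and 0, 8236 and 0 in the testes. None of these was called, and 15462 did not pass the filter on low counts.

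The share of a gene in testis-built transcripts differed by gene. For zp4 it was 8.74%, 23.7% and 4.81% in the ovaries and 0%, 43.2% and 10.9% in the testes (exact permutation p = 0.8). For zp3 it was 14.0%, 9.70% and 6.33% in the ovaries and 0.817%, 5.64% and 0.438% in the testes (exact permutation p = 0.1, adjusted over the genes 0.4), but without transcript 38484 it was 14.4%, 9.85% and 6.40% in the ovaries and 26.7%, 12.9% and 9.65% in the testes. For zp2 it was 0%, 0.00447% and 0% in the ovaries and 0%, 29.0% and 2.40% in the testes (exact permutation p = 0.4). All zp1 transcripts were ovary-built.

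Of the 367 transcripts, 286 passed the filter on low counts and 81 did not. In edgeR, 49 of the 286 were called higher in ovary, where 4.4% of 30738 transcripts were, and 0 were called higher in testis, where 6.26% were. At an unadjusted p under 0.05, 179 of the 286 (62.6%) differed in edgeR, against 31.1% of all transcripts tested, and DESeq2, whose own filter left 222 of them with an adjusted p, called 168 higher in ovary, where it called 17.4% of all transcripts, and 0 higher in testis, where it called 16.9%. By gene, the edgeR calls were 9 of 28 tested for zp2, 21 of 184 for zp3, 19 of 71 for zp4 and 0 of 3 for zp1. A member could pass the filter through the ovary alone, where it is high, so these counts only describe the members. The count of 49 did not hold without any 1 library: it was 10 without testis replicate 1 and 0 without each other library, settings in which edgeR called 0 transcripts of any gene except without testis replicate 1.

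Most called transcripts were not among the abundant members, although the highest had a mean of 1380 FPKM in the ovaries. They had a median of 14.3 FPKM in the ovaries, against 53.5 FPKM for the members tested and not called, and held 4.45%, 5.79% and 4.74% of egg envelope counts in the ovaries. By gene, these medians were 12.8 against 120 FPKM for zp2, 20.9 against 57.8 for zp3 and 13.1 against 16.3 for zp4. In 25 of the 49, all testes were at 0. Such medians and counts over all transcripts called higher in ovary are not given here, so these values only describe the members. The call with the smallest adjusted p in zp3 was ovary-built transcript 33220 (2411 bases, a spotted gar zona pellucida sperm-binding protein 3-like hit), with 1190, 1081 and 363 counts in the ovaries and 2.83, 4.93 and 6.58 in the testes (log2 fold change 7.28 ± 0.91, SE, edgeR adjusted p = 0.0269). Another called zp3 transcript, number 28554 (2632 bases), had 717, 718 and 877 counts in the ovaries and 64, 75 and 33 in the testes (log2 fold change 3.67 ± 0.58, SE, edgeR adjusted p = 0.0295). In transcripts 33220 and 28554 testis replicate 2 stood near the other testes. Between them in adjusted p was zp3 transcript 41893 (2006 bases, edgeR adjusted p = 0.0271), with 644, 696 and 507 counts in the ovaries. In the testes it had 9.93, 1.62 and 7.89 counts, with replicate 2 lowest. In zp4, transcript 6687 (3852 bases) had 6370, 1472 and 1468 counts in the ovaries and 0 in each testis (edgeR adjusted p = 0.0286), and the longest member, transcript 3044 (4526 bases), had 1002, 295 and 145 counts in the ovaries and 2, 0 and 0 in the testes (edgeR adjusted p = 0.0327). In zp2, transcript 18299 (2986 bases) had 3436, 808 and 1016 counts in the ovaries and 0 in each testis (edgeR adjusted p = 0.0286).

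Among the tested members the fitted log2 fold change was above 0 for 279 and below 0 for 7, with a median of 6.72, beside a median of 0.17 over all transcripts tested. The 7 below 0, none of them called, included transcripts 38484, 23966 and 16871. Another was zp3 transcript 53609 (eZPCa), with 6.31, 0 and 206 counts in the ovaries and 0, 2606 and 277 in the testes (edgeR adjusted p = 0.379). Of all members, 86 were at 0 in each testis and 5 at 0 in each ovary, and 3 of these were at 0 in every library. Such counts over all transcripts are not given here. Of the 367 members 359 were ovary-built, against 22549 of all 35011 transcripts, and a member could pass the filter through the ovary alone. The split by sign, the median and the counts at 0 thus only describe the members.

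Markers of oocytes were set beside the testis values. Of 14 listed, 7 matched a symbol, and they summed to 4331, 4578 and 5180 CPM in the ovaries, against 74.6, 248 and 137 in the testes, with the testes in the same order as for the egg envelope genes. All 7 were called higher in ovary, where 21.4% of all gene units were. Of the mean ovary FPKM, the testes had 0%, 8.75% and 0.155% for zp1, 0.0365%, 3.15% and 0.255% for zp2, and 0.0247%, 17.7% and 0.388% for zp4. These percentages were not scaled to the summed FPKM of a library, which was 752630, 721650 and 821037 in the ovaries, against 770032, 1218425 and 1312673 in the testes. For zp3 without transcript 38484 they had 0.0260%, 8.63% and 0.323%. The oocyte growth factor gdf9 had 1.33%, 4.74% and 1.93% of its ovary level in the testes, the maternal factor zar1 0.400%, 5.25% and 1.35%, and the oocyte kinase mos 0.155%, 1.03% and 0.741%. The transcription factor gene figla had 2.39%, 11% and 12.6%, with replicate 3 highest. The growth factor bmp15 (5.77%, 7.65% and 6.62%) and the yolk precursor receptor vldlr (5.36%, 5.49% and 6%) were nearly level among the testes in FPKM.

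The ratio of testis replicate 2 to testis replicate 3 was thus higher for zp1, zp2 and zp4 than for any matched oocyte marker. For zp3 this held only without transcript 38484. With all its transcripts, zp3 had 16.4% of its mean ovary FPKM in testis replicate 2 and 5.26% in testis replicate 3. That ratio was below the ratio for zar1 (5.25% and 1.35%). Male germ cell markers summed to 50.3, 51.4 and 25.5 CPM in the ovaries, against 1253, 680 and 872 in the testes, so the sum of replicate 2 was lowest among the testes and far above the ovaries. Of 8 listed 7 matched, and 6 were called higher in testis, where 25.2% of all gene units were. Replicate 2 was the lowest testis for each but dmrt1, at 55.15, 60.5 and 85.5 FPKM in the testes. The marker not called, ropn1l, had 19.2, 13.3 and 6.96 FPKM in the ovaries and 52.2, 22.2 and 30.4 FPKM in the testes. Leukocyte markers summed to 63.8, 64.5 and 30.0 CPM in the ovaries, against 79.8, 373 and 271 in the testes, with replicate 2 highest. Of 6 listed 2 matched, and cd74 had 63.9, 63.6 and 28.7 FPKM in the ovaries and 59.8, 343 and 266 in the testes, while coro1a was nearly level among the testes at 8.99, 9.57 and 10.04 FPKM. Red blood cell markers, at 64.5, 57.9 and 67.5 CPM in the ovaries and 7175, 1476 and 667 in the testes, peaked in replicate 1. Of 7 listed 3 matched, and this peak was that of cahz, at 3723, 81 and 132 FPKM in the testes, while hbb1, at 160, 3679 and 1267 FPKM, and alas2, at 3.17, 39.6 and 12.2 FPKM, had the same order of testes as the zp genes. Sertoli and Leydig cell markers, at 148, 184 and 115 CPM in the ovaries and 127, 134 and 446 in the testes, peaked in replicate 3. Of 8 listed 4 matched, and hsd3b, at 101.2, 142 and 88.1 FPKM in the ovaries and 1.89, 17.5 and 11.2 FPKM in the testes, was called higher in ovary, while cldn11, star and hsd11b2 were called higher in testis. The part of any of these cells in the testis levels of zp genes was not tested.

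**Figure D5:**
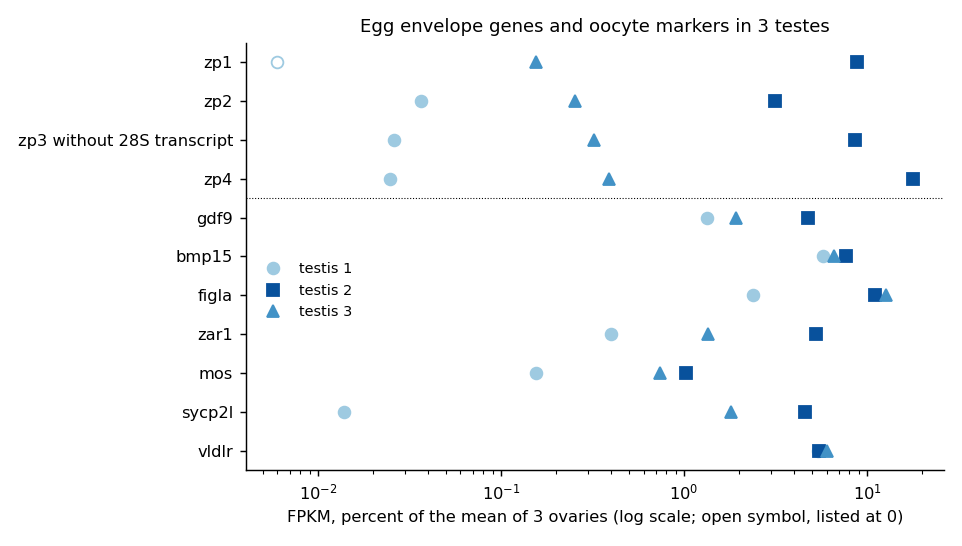
FPKM in each testis as a percent of the mean of the 3 ovaries, on a log axis, for the egg envelope genes, with zp3 without its 28S transcript (above the dotted line), and the 7 oocyte markers (below it), with 1 symbol per testis and an open symbol for a value of 0. Testis 2 lies between 3.15% and 17.7% for the egg envelope genes and between 1.03% and 11% for the markers, while testes 1 and 3 lie below 0.4% for each egg envelope gene.

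Other proteins with a ZP domain were also mostly higher in ovary. Of 13 listed genes 7 matched and 6 were tested, of which 5 were called higher in ovary and 0 in testis, with a median log2 fold change of 4.66, beside 21.4% and 25.2% called and a median of -0.11 over all gene units tested. Uromodulin (umod), a filament-forming ZP domain protein of mammalian urine, had 159, 164 and 114 FPKM in the ovaries and 0.91, 6.70 and 2.44 in the testes (log2 fold change 5.66, edgeR adjusted p = 0.00237). Its relative umodl1 gave 4.50 (edgeR adjusted p = 0.0129) and tecta, a protein of the inner ear matrix in mammals, 4.82 (edgeR adjusted p = 0.0132). The change was smaller for tgfbr3, at 2.33 (edgeR adjusted p = 0.00505), with 10.4, 27.5 and 17.3 FPKM in the ovaries and 3.95, 5 and 2.98 in the testes. Also called, gp2 (6.47, edgeR adjusted p = 0.0382) overlapped between tissues, with 5.85, 23.4 and 0.25 FPKM in the ovaries and 0, 0.36 and 0 in the testes. In the ovaries all were far below the zp genes in FPKM. The other tested member, dmbt1, gave 0.77 (edgeR adjusted p = 0.422).

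Of 14 listed oocyte regulators, 11 were tested, 8 were called higher in ovary and 1 in testis, beside 21.4% and 25.2% of all gene units, with a median log2 fold change of 4.16. FIGLA, the product of figla, activates zp genes in the mouse oocyte. Its gene had 155, 199 and 747 FPKM in the ovaries and 8.76, 40.5 and 46.4 in the testes (log2 fold change 3.71, edgeR adjusted p = 0.0132), with ovary replicate 3 far above the others. Egg envelope transcripts summed to 142657, 135001 and 153362 FPKM in the same ovaries. This sum was highest in replicate 3, as was their share of library counts, at 20.8%, 19.5% and 22.6%. As a share of all FPKM in the library they held 18.95%, 18.71% and 18.68%, nearly level, so the place of replicate 3 depended on the measure. A link between figla and zp levels was not tested. The rule for named genes picked bmp15 (4.16, edgeR adjusted p = 0.000717), the RNA-binding protein gene rbpms2 (6.09, edgeR adjusted p = 0.000717), gdf9 (5.45, edgeR adjusted p = 0.00120) and lhx8, a transcription factor of early oocytes in mouse (5.83, edgeR adjusted p = 0.00388). The member called higher in testis was foxo3 (-2.88, edgeR adjusted p = 0.00505).

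Genes of egg coat processing and of sperm binding were few, as 4 of 15 and 3 of 10 listed matched a symbol. Of the 4 processing genes, all tested, 3 were called higher in ovary, where 21.4% of all gene units were. The remaining 1 was called higher in testis, where 25.2% were. The 3 were the proprotein convertases furin, pcsk5 and pcsk6, a family of enzymes that cut secreted precursors. Pcsk5 had 90.5, 99.2 and 116 FPKM in the ovaries and 18.1, 26.9 and 18.52 in the testes (log2 fold change 2.56, edgeR adjusted p = 0.00189). Tgm2, a transglutaminase, which cross-links proteins, was higher in testis (-4.99, edgeR adjusted p = 0.00972). Of the sperm proteins, spaca4 (-5.40, edgeR adjusted p = 0.00366) and zan (-3.24, edgeR adjusted p = 0.00572), whose mouse products act in sperm binding to the egg coat, were both higher in testis. The other match, spaca6, was not tested. It had 0, 0 and 0.05 FPKM in the ovaries and 24.2, 0.06 and 5.19 FPKM in the testes. These marker and pathway lists overlap in gdf9, bmp15, figla and zar1.

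The genes whose pattern was most like the summed egg envelope level over the 6 libraries were eomes, cidea, tecta, s100a1 and mmcm3, among 6895 genes with a mean of 10 FPKM or more in the higher tissue. Their root mean square difference in centred log2(FPKM + 1) was 0.601, 0.632, 0.632, 0.634 and 0.640. Without transcript 38484 the most alike was nqo1, at 0.659, which had 3283, 3103 and 2746 FPKM in the ovaries and 0.33, 143 and 12.7 FPKM in the testes. It was followed at a distance by muc1 at 1.02, so the list of like genes also changed with this 1 transcript.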

How the data were processed

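RNA of 3 ovaries and 3 testes was sequenced on Illumina libraries (NEBNext Ultra kit after TRIzol), with PacBio long reads as the transcript set. The submitters' processing notes name featureCounts 1.5.0-p3, HISAT2 2.0.5, fastp and CASAVA 1.8, with no role for any of them. No label or header names the quantifier of these values or a genome build. Per the file headers, the deposited values are a read count and FPKM per transcript and library, and the transcript length in bases. The deposited counts are called estimated counts because only 18.2% to 19.8% of those above 0 in a library were exactly whole (26.5% to 31.6% with zeros), and they were rounded for count models. The authors scaled FPKM by library size and length. Library totals were 11913969 to 18508307 counts.

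Transcripts were summed per symbol of the SwissProt hit, and transcripts without a symbol stayed single. Records of the nucleotide hit gave the eel groups. Tests used edgeR 4.0.16 in R 4.3.3 (TMM, filterByExpr, robust quasi-likelihood F test with tissue as the only term, Benjamini-Hochberg adjusted p over all units, called under 0.05). The SE is the log2 fold change over the square root of F. Transcript mix was tested with diffSpliceDGE. Shares had exact two-sided permutation tests. Alternatives were DESeq2 1.42.0, limma 3.58.1 on log2(FPKM + 1) and on log2(FPKM + 0.1), limma-voom, other scaling, no filter, a replicate block and leaving out each library. The fits were tested on simulated data, where the mix test made false calls above its nominal rate. Tables and figures used matplotlib 3.10.9, scipy 1.17.1, numpy 2.4.6 and pandas 2.3.3 under Python 3.11.15.

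Members, lists and tests were chosen with earlier results of these data known. Transcripts were named, per gene, from the 3 of highest mean share, the 1 of highest share in testes and the longest. Up to 3 calls of smallest adjusted p were added to these, and not all transcripts under this rule are named. Up to 4 tested genes per list and the 5 most alike genes were also named. Transcripts outside this rule were named after their values were seen. They were those testis-built, those leading an ovary, and numbers 25154, 48325, 44683, 47603, 26192, 22143, 26356, 53609, 44536 and 51630. The genes zar1, figla, dmbt1, gp2, foxo3, nqo1 and muc1 were also named after their values were seen. Replicates are separate fish, per the series' design text.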

Additional observations from a re-analysis of the deposited data

How the results depend on the processing

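Log2 fold changes of zp1 to zp4 were above 0 in every setting run. In zp1 the call appeared in limma on log2(FPKM + 1) (8.68), on log2(FPKM + 0.1) (9.82) and in limma-voom (11.10). In zp4 it appeared in DESeq2 (4.50), the same limma settings (7.45 and 7.49) and limma-voom (7.59). Of all gene units, limma called 19.2% and 19.6% higher in ovary in these settings, limma-voom 21.8% and DESeq2 26.1%. For zp3 the call was lost without the 28S transcript (5.33). Leaving out a library, with or without that transcript, gave 4.72 to 10.68 for zp1, 6.22 to 9.48 for zp2, 3.20 to 9.45 for zp3 and 3.88 to 9.02 for zp4. Limma-voom, the eel record groups and the runs without the 28S transcript were chosen after seeing the data.

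Beside the 49 transcripts called, DESeq2 called 168, limma 102 on log2(FPKM + 1) and 130 on log2(FPKM + 0.1), limma-voom 33, and edgeR without a filter 19, where 17.4%, 6.68%, 7.99%, 2.96% and 1.67% of all transcripts were called higher in ovary. Leaving out a library gave 0 to 10. Adjusted p for the transcript mix was 0.902 for zp3 and 0.274 for zp4 by the Simes test, and 0.383 for zp3 without the 28S transcript. Without 1 library it ran from 0.372 to 0.886 for zp1, 0.0473 to 0.311 for zp2, 3.43e-12 to 0.0647 for zp3 and 0.000299 to 0.131 for zp4. In these runs 3.73% to 12.2% of genes were called.

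Same-numbered libraries did not deviate together (r of -0.029, 0.002 and -0.034), so the replicate block is given only here. With the replicate block zp3 gave 4.56 (edgeR adjusted p = 0.0694) and was not called. There zp2 stayed called at 8.66 (edgeR adjusted p = 0.0255), where 17.2% of gene units were called higher in ovary. In that setting edgeR called 0 of 30738 transcripts of any gene, and so 0 egg envelope transcripts. The mix of zp3 (diffSpliceDGE adjusted p = 0.670) and zp4 (diffSpliceDGE adjusted p = 0.382) was not called, where 2.64% of genes were.

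In the ovary minus testis differences, the share of egg envelope counts in zp2 was 3.17 percentage points in FPKM and 1.41 without the 28S transcript. Without it the share was 4.05 for zp3 and -9.64 for zp4, the testis-built share of zp3 -6.18 and its effective number of transcripts 3.84. Leaving out a library gave differences of 18.7 to 20.5 percentage points for the library share. It gave 5.12 to 7.05 for the share of zp1, 4.47 to 4.93 for zp2, -40.4 to -24.5 for zp3 and 14.8 to 28.4 for zp4. For testis-built shares it gave 0 for zp1, -15.7 to -1.20 for zp2, 5.72 to 9.54 for zp3 and -14.7 to 6.95 for zp4. For effective numbers it gave -0.616 to -0.0935 for zp1, -0.143 to 1.81 for zp2, 16.6 to 20.6 for zp3 and -4.67 to 0.317 for zp4. Where a setting changed a value, the cause was not tested.

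With 3 fish per tissue and testes that differed this widely, levels of single genes in testis are known poorly, and a p that misses the threshold does not show equal levels. Symbols rest on the best protein hit, and how reads on near-identical transcripts were divided is not stated in the files or labels.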

Other observations

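Another 14 transcripts had an egg envelope protein or nucleotide hit but no zp symbol, and they were not counted among the members. They summed to 24648, 77626 and 30453 counts in the ovaries, against 116, 1963 and 321 counts in the testes, so that every ovary stood above every testis and testis replicate 2 was again the highest testis. Here too the ovaries used different transcripts: number 44536 had 347, 28237 and 274 counts in the ovaries and 0, 0 and 8.56 in the testes, while number 51630 had 1048, 1243 and 23196 in the ovaries and 5.75, 34.1 and 19.2 in the testes. Testis-built number 25912 had 6061, 68.9 and 2020 counts in the ovaries and 56.6, 1549 and 31.6 in the testes.

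Transcripts with a hit to choriolytic enzymes, the hatching enzymes that digest the egg envelope of fish embryos, were near the same level in both tissues. They summed to 74.2, 135 and 94.9 CPM (counts scaled to a common library total) in the ovaries and 76.1, 108 and 110 in the testes, which overlapped (exact permutation p = 1).

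Transcripts with a ribosomal RNA hit of any kind held 5.82%, 2.86% and 0.388% of the counts in the ovaries and 1.22%, 6.99% and 5.22% in the testes. These shares include zp3 transcript 38484.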
